A study of Mus musculus with 3 samples.

Results

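Alternative coding cassette exons are internal exons that some coding transcripts of a gene include and others splice out whole, and they were examined here for crosslinks to the splicing regulator Tra2β in adult mouse testis. Members were taken from the GENCODE annotation alone, as exons from 51 to under 400 nt lying wholly in coding sequence, internal in at least 1 protein-coding transcript and wholly inside an intron of another. This gave 34223 cassette exons in 10651 genes, 22.4% of the 152798 internal coding exons of that length. The other 118575 exons served for comparison. A cassette exon was called canonical where the Ensembl canonical transcript of the gene contains it or an overlapping version (30207 exons), non-canonical where that transcript skips it (3810 exons), and outside where it lies beyond the ends of that transcript (206 exons).

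A cassette exon is kept or left out of the mature mRNA depending on how well its splice sites are recognised. SR and SR-like proteins such as Tra2β bind short purine-rich enhancers within exons and promote their inclusion, and GAA-rich sequence is the best known Tra2β target. The testis makes an unusually large variety of splice isoforms, many of them in meiotic and post-meiotic germ cells.

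All 3 libraries were biological replicates of 1 group, adult wild type mouse testis of mixed cell type, minced, irradiated with ultraviolet light and immunoprecipitated with a polyclonal Tra2β antibody. In iCLIP, reverse transcription tends to stop where a protein had been fixed to the RNA, so each unique cDNA marks a crosslinked nucleotide, counted here as 1 crosslink. There was no control library among the samples analysed here, so each exon was compared with other parts of the same gene in the same library. RNA abundance and exon inclusion were not measured in these libraries, so lower inclusion of an exon and less contact per RNA cannot be told apart.

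Depth was 348033, 619571 and 488719 crosslinks in replicates 1, 2 and 3. All 12 germ cell marker genes checked had crosslinks in every library, among them Ddx4 with 193, 117 and 250. Markers of Sertoli, Leydig and myoid cells were also present, with Cldn11 and Insl3 at 0 in replicate 2. Of 4 genes not expected in testis, Alb had 0 crosslinks in each library and Ins2 had 7, 28 and 3. Cassette exons held 3.13% of the crosslinks of replicate 1, with a 95% Clopper-Pearson interval of 3.07 to 3.18%. The share was 1.47% in replicate 2 (1.44 to 1.50%), while replicate 3 had 4.64% (4.58 to 4.70%). Replicate 2 was the deepest library and had the lowest share, so ratios taken within each library were used throughout. Of the 34223 cassette exons, 11591 (33.9%) had at least 1 crosslink and 1651 had one in all 3 libraries, against 33.6% of the other exons with at least 1. Intervals and limits cover counting error only.

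The sequences below are a choice among the exons named in the text. They are read 5′ to 3′ from GRCm39 on the strand of the gene, with each GAA in capitals. Srpk1, Pdap1 and Cfap36 were denser in crosslinks than their neighbouring exons, Ggnbp2 and Iqcf3 were non-canonical exons with many crosslinks, and Nasp lies in the long exon of the testis isoform of the gene.
Srpk1, chr17:28819217-28819430, minus strand: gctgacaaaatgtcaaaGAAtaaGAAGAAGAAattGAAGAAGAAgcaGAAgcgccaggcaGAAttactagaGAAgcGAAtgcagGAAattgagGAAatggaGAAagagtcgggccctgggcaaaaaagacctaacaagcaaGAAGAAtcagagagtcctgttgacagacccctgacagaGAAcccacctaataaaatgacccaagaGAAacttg
Pdap1, chr5:145071875-145071982, minus strand: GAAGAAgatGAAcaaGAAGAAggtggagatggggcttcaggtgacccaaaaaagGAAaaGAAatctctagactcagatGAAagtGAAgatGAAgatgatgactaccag
Cfap36, chr11:29179908-29179959, minus strand: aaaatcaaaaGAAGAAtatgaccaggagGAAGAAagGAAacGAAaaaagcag
Ggnbp2, chr11:84745081-84745206, minus strand: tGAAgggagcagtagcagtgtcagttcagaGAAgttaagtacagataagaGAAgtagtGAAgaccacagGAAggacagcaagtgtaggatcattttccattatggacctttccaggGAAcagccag
Nasp, chr4:116467600-116467827, minus strand: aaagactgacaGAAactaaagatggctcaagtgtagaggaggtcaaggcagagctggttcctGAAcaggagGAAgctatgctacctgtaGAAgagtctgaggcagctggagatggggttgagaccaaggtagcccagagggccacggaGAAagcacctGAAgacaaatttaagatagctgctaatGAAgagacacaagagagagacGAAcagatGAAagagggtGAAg
Iqcf3, chr9:106429938-106430119, minus strand: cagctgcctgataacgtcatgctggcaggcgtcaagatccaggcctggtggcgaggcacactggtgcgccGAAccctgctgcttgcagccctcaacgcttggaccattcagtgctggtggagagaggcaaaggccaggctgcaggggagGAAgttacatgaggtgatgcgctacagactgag

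GAA was not rare in coding exons in general. On the strand of the gene, 89.5% of cassette exons and 92.1% of the other exons held at least 1 GAA, while the longer run GAAGAA, counted with overlaps, was in 13.0% and 14.7%. The Srpk1 exon held 18 GAA trinucleotides in 214 nt and the Cfap36 exon 6 in 52 nt. The Iqcf3 exon held 2 in 182 nt. Of the 10 exons above their neighbours that were named for their fold, those printed were the richest in GAA. Cfap36, Pdap1 and Srpk1 held 11.5, 9.26 and 8.41 GAA per 100 nt. The rest of the 10 ran from 3.06 in Spata6 to 6.91 in Nrdc, with 4.96 in Tcp10b, which had the highest fold among them.

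The first comparison asked whether Tra2β crosslinks were concentrated in cassette exons relative to the sequence around them. Density in cassette exons was well above that of intron next to them and close to that of the neighbouring coding exons. Cassette exons held 2.50, 2.10 and 5.22 crosslinks per kb in replicates 1, 2 and 3, against 0.175, 0.238 and 0.236 per kb in the 200 nt of intron on each side. The log2 density over these introns was 3.87, 3.15 and 4.50, with a mean of 3.84 ± 0.68 (SD, n = 3). It was lowest in replicate 2, and high in each library. The other exons had a mean of 4.05 ± 0.56 on the same scale.

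Against the coding bases of the exons just before and just after, the log2 density of cassette exons was -0.05, -0.12 and -0.04, with a mean of -0.07 ± 0.05 (SD, n = 3). The other exons lay at 0.01 ± 0.02. The difference between cassette and other exons was -0.04, -0.16 and -0.05, with a mean of -0.08 ± 0.06, below 0 in each of the 3 libraries. Limiting the other exons to genes with a cassette exon, a choice made after seeing the data, left this difference at -0.08 ± 0.05. With 3 libraries, the smallest two-sided p of an exact sign-flip test is 0.25, so none of these pooled differences can pass that test. When neighbours were taken as whole exons including untranslated bases, the value of cassette exons turned to 0.64 and the difference from other exons to 0.17. Both signs therefore depended on the choice of neighbouring bases.

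Crosslinks were spread over the length of cassette exons and fell away in the intron on either side. In the first 25 nt the density was 0.99, 0.80 and 1.05 times the mean of all cassette exons in replicates 1, 2 and 3. Between 50 and 26 nt from the end it was 1.02, 1.61 and 1.02 times that mean, so that replicate 2 stood apart in this window. In the last 25 nt it was 0.95, 1.19 and 0.91 times that mean. The last 50 nt of the upstream intron held 0.10, 0.16 and 0.08 times the exon mean. The first 50 nt of the downstream intron held 0.07, 0.12 and 0.04 times the exon mean.

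**Figure D1:**
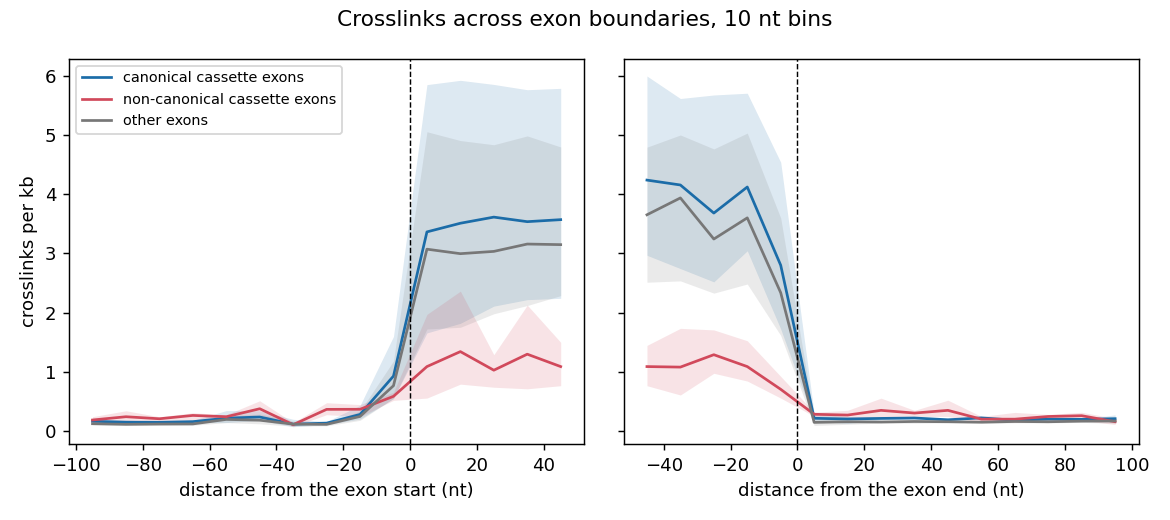
Crosslinks per kb in 10 nt bins around exon starts (left) and ends (right), for canonical cassette, non-canonical cassette and other exons. Lines are means of 3 libraries and bands run from the lowest to the highest library. Density stepped up within canonical cassette and other exons, and by a smaller amount within non-canonical cassette exons.

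The next comparison was between cassette exons in canonical transcripts and those the canonical transcript skips. Canonical cassette exons were as dense as their neighbours to within the spread between libraries, whereas non-canonical cassette exons held fewer crosslinks per nt than theirs in every library. The log2 density of canonical cassette exons over their neighbours was 0.03, -0.04 and 0.03, with a mean of 0.00 ± 0.04 (SD, n = 3). That of non-canonical cassette exons was -1.46, -1.50 and -1.45, with a mean of -1.47 ± 0.02, or 2.77-fold fewer crosslinks per nt. The 206 exons outside the canonical transcript lay between them at -0.64 ± 0.09.

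Non-canonical cassette exons had 0.813, 0.784 and 1.71 crosslinks per kb, and their neighbours 2.24, 2.21 and 4.69. The difference between the classes was 1.49, 1.46 and 1.48 log2 units, a mean of 1.47 ± 0.02 that exceeded the spread between libraries. It was 1.42 ± 0.03 within the 2292 genes that hold exons of both classes. The non-canonical class rested on 314, 304 and 661 crosslinks, and 3325 of its 3810 exons had none. It was also above its flanking introns, at a log2 density of 1.94 ± 0.75 against 3.97 ± 0.66 for canonical cassette exons.

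Being absent from the canonical transcript does not always mean being rare in the annotation. Of the 3810 non-canonical exons, 608 were skipped by at most 50% of the coding transcripts that span them. These 608 had a log2 density over their neighbours of 0.09, -0.18 and 0.00, with a mean of -0.03 ± 0.14. A single exon, that of Iqcf3, held 27, 3 and 100 of their crosslinks, a large part of those in replicate 3. The value of this group without Iqcf3 was not computed. The 3202 skipped by more than 50% had -2.06, -1.94 and -2.07, with a mean of -2.03 ± 0.07. The 828 canonical exons skipped by more than 50% had -0.27 ± 0.07. They rested on 306, 190 and 631 crosslinks, a large part of them in Ccdc136. Its 279 nt exon held 109, 13 and 168 of these and its 282 nt exon 38, 4 and 73. The value without Ccdc136 was not computed. The mostly included and mostly skipped non-canonical exons did not overlap in any library. With Iqcf3 among them, the mostly included ones differed from canonical exons by less than their own spread.

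**Figure D2:**
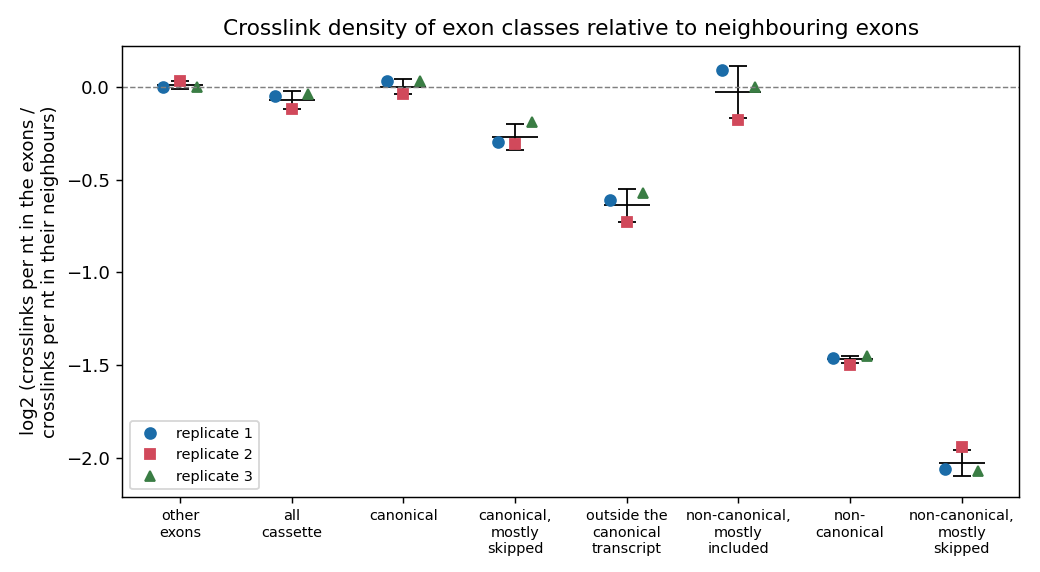
Log2 crosslink density relative to neighbouring exons for classes of internal coding exons. Points are the 3 libraries, and horizontal bars with whiskers are the mean ± SD. Mostly skipped means more than 50% of annotated coding transcripts. Mostly skipped non-canonical exons were lowest, at -2.03, and mostly included non-canonical exons, with Iqcf3 among them, were near 0.

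Over all cassette exons, density fell with the share of coding transcripts that skip the exon. Exons skipped by at most 10% of transcripts had a log2 density of 0.05 ± 0.05 (SD, n = 3), those skipped by 10 to 25% had 0.02 ± 0.03, and those skipped by 25 to 50% had -0.15 ± 0.05. Exons skipped by 50 to 75% had -0.83 ± 0.13 and those skipped by 75 to 100% had -1.64 ± 0.22. The lowest pair of groups did not differ beyond their spread, and from 25% upwards each step was downwards in each library. The share counts annotated transcripts and not transcripts measured in testis.

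**Figure D3:**
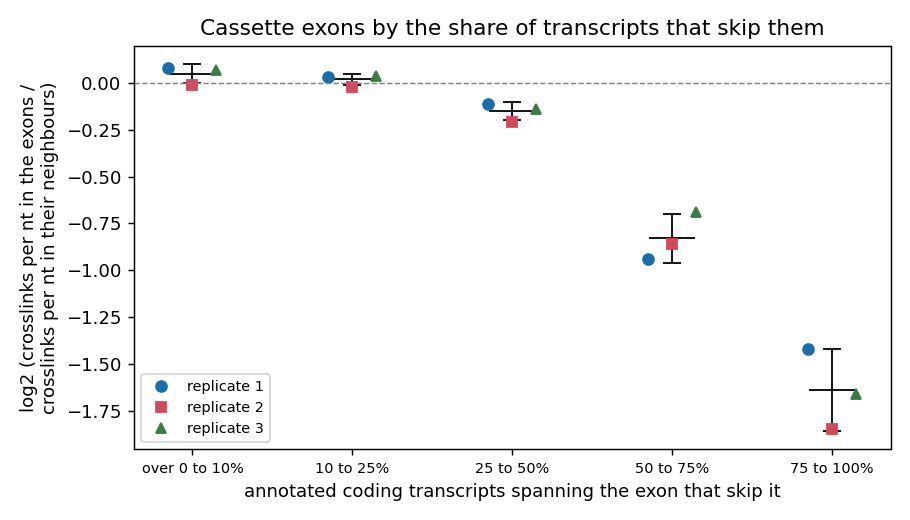
Log2 crosslink density over neighbouring exons of cassette exons grouped by the share of annotated coding transcripts that skip them. Points are the 3 libraries, bars and whiskers the mean ± SD. Values fall from 0.05 in the least skipped group to -1.64 in the most skipped.

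The classes also differed in sequence and size. Median length was 120 nt for canonical cassette exons, 90 nt for non-canonical ones and 127 nt for other exons. A length divisible by 3, which keeps the reading frame when the exon is skipped, was found in 50.8% of canonical and 70.8% of non-canonical cassette exons against 37.5% of other exons. Canonical cassette exons held on average 2.49 GAA per 100 nt, close to the 2.50 of their neighbours. Non-canonical cassette exons held 2.04 against 2.43 in their neighbours, and GAAGAA was found in 7.09% of them against 13.7% of canonical ones. The log2 density of non-canonical exons over their neighbours was -1.56 ± 0.05 for lengths divisible by 3 and -1.26 ± 0.12 for other lengths. By length it was -1.76 ± 0.36 for exons of 51 to 99 nt and -0.62 ± 0.20 for exons of 200 nt and longer.

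Since Tra2β is known to prefer GAA-rich RNA, cassette exons were next split into 3 groups of near equal size by GAA per 100 nt, with no use of crosslinks. Density rose with GAA content. The GAA-poor group, up to 1.50 GAA per 100 nt, had a log2 density over neighbours of -0.48, -0.74 and -0.46. The middle group had -0.26, -0.44 and -0.21. The GAA-rich group, from 2.95 GAA per 100 nt, had 0.30, 0.37 and 0.26. The rich minus poor difference was 0.78, 1.10 and 0.72, with a mean of 0.87 ± 0.21 (SD, n = 3), above 0 in each of the 3 libraries. It was largest in replicate 2.

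The same split gave a difference of 0.73 ± 0.21 among canonical cassette exons, 1.30 ± 0.63 among non-canonical ones and 0.50 ± 0.32 among other exons. In each library it was highest in non-canonical and lowest in other exons, which was not tested. GAA-rich non-canonical exons lay at -0.83, -0.30 and -0.96 and GAA-rich canonical exons at 0.33, 0.39 and 0.29. The part of GAA content in the difference between the classes was not tested. The GAA-poor group averaged 47.9% purines and the GAA-rich group 57.6%, so GAA and purine content moved together.

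Within single cassette exons, GAA was also somewhat more frequent close to crosslinks. The number of GAA per position within 20 nt on either side of a crosslink was 1.11, 1.19 and 1.07 times the mean over all positions of the same exons, with a mean ratio of 1.12 ± 0.06 (SD, n = 3). Other exons had 1.12 ± 0.07, so this was shared by both kinds of exon. For GAAGAA the ratio in cassette exons was 1.31. The crosslinked nucleotide itself was the middle base of a GAA less often than average, at 0.531, 0.553 and 0.571 times the exon mean. The side with more GAA differed between libraries, with 1.12, 1.37 and 1.08 times the mean in the 20 nt downstream and 1.13, 1.05 and 1.10 times upstream. From 31 to 50 nt away the ratio was 0.97 ± 0.05 upstream and 0.95 ± 0.01 downstream.

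**Figure D4:**
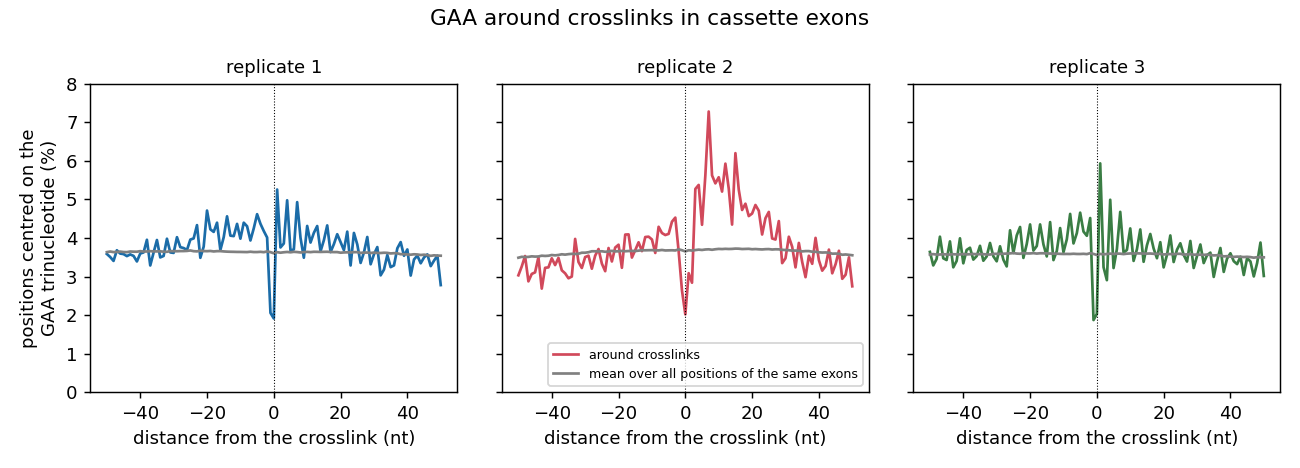
Share of positions that are the centre of a GAA, in percent, by distance from crosslinks in cassette exons, in each library. Coloured lines are around crosslinks and grey lines the mean over all positions of the same exons. All 3 libraries show a dip at the crosslink and more GAA within about 20 nt, highest downstream in replicate 2.

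Single exons were then compared with their neighbours by a fit across all internal coding exons, in which an exon needed at least 20 crosslinks with its neighbours to be tested. At this depth 1434 of the 34223 cassette exons, in 585 genes, could be tested, of 6450 exons in all. By edgeR's quasi-likelihood test with Benjamini-Hochberg adjustment, 27 cassette exons (1.88%) were above their neighbours at an adjusted p under 0.05, where the share over all tested exons was 1.44%. Below their neighbours were 51 cassette exons (3.56%), where the share over all tested exons was 1.30%. The other exons gave 66 above and 33 below of 5016.

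The calls were then counted by class. All 27 cassette exons above their neighbours were canonical, which is 2.03% of the 1330 canonical exons tested. At that share, few of the 96 non-canonical exons tested would be called above. Of the 51 below, 27 were among the 1330 canonical exons tested (2.03%) and 24 among the 96 non-canonical exons tested (25%). An exon without crosslinks could enter the test only through at least 20 crosslinks in its neighbours. This was so for 47 of the 96 non-canonical and 37 of the 1330 canonical exons tested, and for 21 of the 24 below. The 25% therefore describes exons chosen in part by dense neighbours, and not non-canonical exons in general. No non-canonical exon was called above in this fit, where 2 were above and 49 below at an unadjusted p under 0.05. With at least 50 crosslinks edgeR called 1 of 25 non-canonical exons above, and with whole neighbouring exons 2 of 140. DESeq2 called 0 non-canonical exons above and 1 below. With exons at 0 set to 3 crosslinks over the 3 libraries, the median ratio of exon to neighbours was 0.517 over the 96 non-canonical exons tested, 0.933 over the canonical and 0.989 over the other exons. The same choice of exons enters these medians.

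These calls were fragile. Leaving out replicate 1, 2 or 3 left no call in either direction with edgeR, while 26, 81 and 13 exons were above and 54, 129 and 28 below at an unadjusted p under 0.05. DESeq2 called 8 above and 7 below, and exact binomial tests required in every library called 3 above and 4 below. An exon can also be below because its neighbour is dense, and 12 of the 51 exons below lay in 10 genes that also held an exon above.

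Exons called above their neighbours were rich in GAA, with a median of 5.41 GAA per 100 nt, against 3.22 over all cassette exons tested and 2.02 over those below. Their median purine content was 65.6%, against 56.4% over all tested. These medians are a description of called exons.

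The exons above that are described next are those with the highest folds among exons with at least 20 crosslinks and 3 in each library. Called exons with fewer crosslinks had higher folds in part, such as Rdx at 3.48 with 1, 5 and 12 crosslinks, which was named after its values were seen. Spata6, needed for the sperm connecting piece, had 25, 8 and 57 in a 294 nt exon and 2, 1 and 11 in 169 nt of neighbours, a log2 fold of 1.93 ± 0.50 (SE, adjusted p = 0.0136, edgeR). Cfap36, a cilium and flagellum protein gene, had 7, 7 and 25 in a 52 nt exon against 14, 3 and 25 in 191 nt, a log2 fold of 1.76 ± 0.46. In that short exon, 28 of the 39 crosslinks fell within 21 nt. Map4, a microtubule-associated protein gene, had 4, 11 and 5 against 0, 7 and 2, a log2 fold of 2.38 ± 0.68.

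Srpk1 encodes a kinase that phosphorylates SR proteins. Its 214 nt exon held 30, 9 and 45 crosslinks against 11, 1 and 32 in 425 nt of neighbours, a log2 fold of 2.07 ± 0.41 (SE, adjusted p = 0.000381, edgeR). The next exon of the same transcript, also a cassette exon, was below its neighbours, with 10, 1 and 31 against 30, 15 and 52, a log2 fold of -1.73 ± 0.40. Each of these exons is a neighbour of the other, so their values are not independent.

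Fbp1, a gluconeogenic fructose bisphosphatase, had 9, 5 and 17 against 0, 0 and 8, a log2 fold of 2.98 ± 0.69. Tcp10b had 4, 3 and 17 against 0, 0 and 2, and 20 of these 24 exonic crosslinks lay within 21 nt. Cdc37l1, a relative of an Hsp90 co-chaperone, had 6, 3 and 15 against 3, 3 and 13. Pdap1 had 12, 9 and 30 in 108 nt against 8, 4 and 11 in 214 nt, a log2 fold of 2.08 ± 0.46. In these exons of Fbp1, Tcp10b, Cdc37l1 and Pdap1, as in that of Map4, density was higher than in the neighbours in each library, though Fbp1, Tcp10b and Map4 rested on 8, 2 and 9 neighbour crosslinks.

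The cassette exon with the most crosslinks was in Nrdc, which encodes the metallopeptidase nardilysin. This 333 nt exon held 118, 47 and 171 crosslinks, against 34, 11 and 75 in 402 nt of neighbours, a log2 fold of 1.87 ± 0.30 (SE, adjusted p = 5.46e-06, edgeR). Exons of Nrdc with 134 and 120 nt, contained in 3 and 5 coding transcripts, were below neighbours that include this dense exon, with 6, 1 and 20 and with 0, 0 and 2 crosslinks. They were named after their values were seen. The second most crosslinked was a 279 nt exon of Ccdc136, a coiled-coil gene known for acrosome formation, with 109, 13 and 168 against 52, 5 and 105 and a log2 fold of 1.39 ± 0.31. Only 3 of 72 coding transcripts contain it. Chaperone exons followed. Hsp90b1, the endoplasmic reticulum Hsp90, had 53, 28 and 89 in 120 nt against 43, 12 and 84 in 229 nt (log2 fold 1.34 ± 0.31), and Hspa4l, an Hsp110 family chaperone, had 58, 9 and 100 in 108 nt against 43, 10 and 73 in 246 nt (log2 fold 1.53 ± 0.33).

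High counts alone did not mean enrichment. A 332 nt exon of Hsp90b1 with 39, 8 and 71 crosslinks had a log2 fold of -0.33 ± 0.35 (adjusted p = 0.727, edgeR), and a 282 nt exon of Ccdc136 with 38, 4 and 73 had -0.75 ± 0.32 (adjusted p = 0.227, edgeR). The neighbours of that Ccdc136 exon, with 124, 14 and 194 in 501 nt, include the dense 279 nt exon with 109, 13 and 168. Pdcl2, a phosducin-like gene of the testis, had 34, 0 and 87 in 91 nt against 41, 2 and 106 in 265 nt. Its log2 fold of 1.19 ± 0.36 just passed (adjusted p = 0.0486, edgeR), with the exon at 0 in replicate 2.

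**Figure D5:**
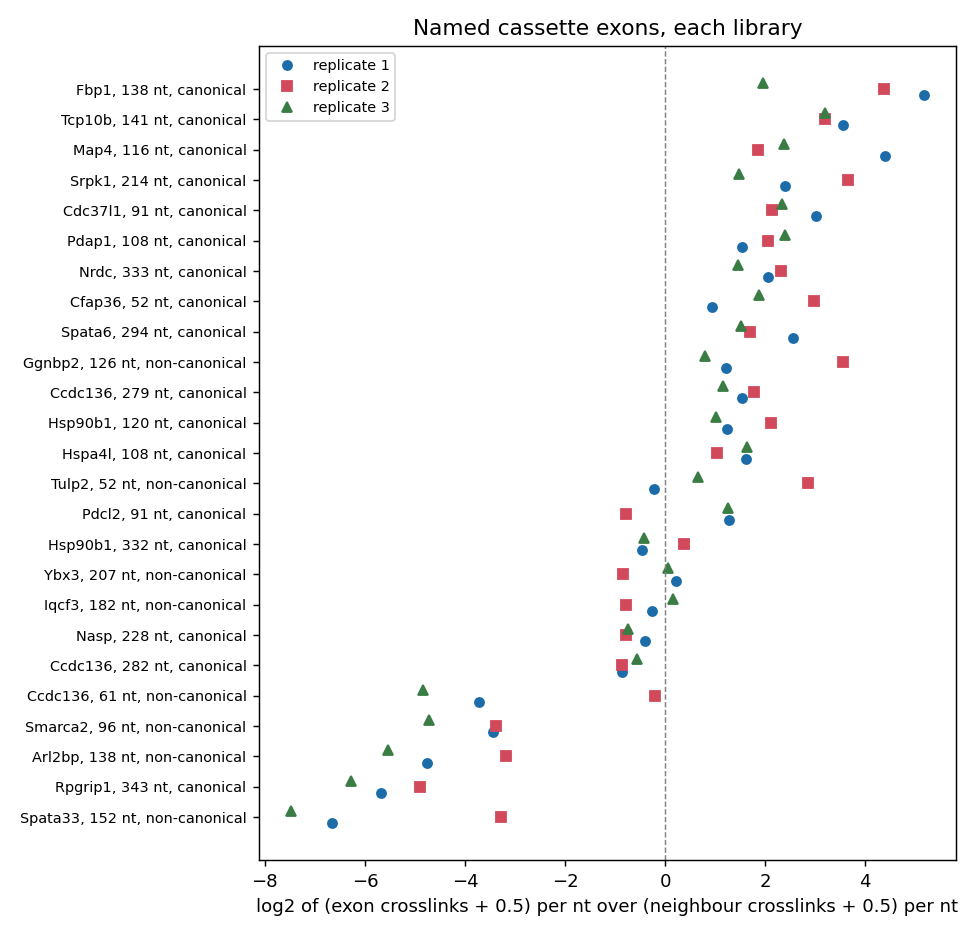
Log2 ratio of crosslinks per nt in named cassette exons over their neighbours, with 0.5 crosslinks added to each, in each library. Each row is an exon with its gene, length and class. All 3 points lie right of 0 for exons such as those of Srpk1 and Nrdc, and left of 0 for the 5 with no crosslinks.

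Among exons called below whose neighbours had at least 3 crosslinks in each library, the 5 with the lowest folds had no crosslink in any library. Spata33, a sperm protein gene, had 0 in a 152 nt exon and 77, 7 and 137 in its neighbours, so the exon was at least 47.9-fold lower per nt when 3 crosslinks over the 3 libraries are allowed. Rpgrip1, a protein of the connecting cilium, had a canonical 343 nt exon at 0 beside 42, 24 and 64, at least 26.2-fold lower. Arl2bp, which encodes a binding partner of a small GTPase, had 0 beside 16, 5 and 28, at least 13.3-fold lower. A Smarca2 exon, in the gene of a chromatin remodelling ATPase, had 0 beside 24, 23 and 59, at least 7.76-fold lower, and a 61 nt exon of Ccdc136 had 0 beside 62, 5 and 137, at least 7.10-fold lower. All but that of Rpgrip1 were non-canonical. Over all 51 exons below, 31 had no crosslink in any library, 21 of them non-canonical, and 28 were skipped by more than 50% of coding transcripts.

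Among non-canonical exons with at least 15 crosslinks, that of Ggnbp2 had the highest fold. Ggnbp2 encodes a gametogenetin binding protein. The exon, of 126 nt and exon 6 of its transcript, held 14, 10 and 31 crosslinks against 10, 1 and 30 in 213 nt of neighbours, and is contained in 19 and skipped by 41 of the coding transcripts spanning it. It was denser than its neighbours in each library, but its log2 fold of 1.33 ± 0.44 did not pass (adjusted p = 0.0745, edgeR). Of its 55 crosslinks, 21 lay between positions 32 and 52 counted from the exon's first base, a stretch that runs from 1 GAA to the next in the sequence above. The 8 canonical cassette exons of Ggnbp2 had log2 folds from -1.80 to 0.58, and none passed.

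Iqcf3, of a testis gene family with calmodulin-binding IQ motifs, had the most crosslinks of any non-canonical exon, with 27, 3 and 100 against 24, 4 and 66. It matched its neighbours, with a log2 fold of -0.08 ± 0.36 (adjusted p = 0.954, edgeR), and 13 of 14 coding transcripts contain it. Tulp2, a tubby family gene, had 4, 5 and 16 in 52 nt and a log2 fold of 0.69 ± 0.49. Ybx3, a Y-box protein that binds germ cell mRNA, had 9, 3 and 42 in 207 nt and -0.05 ± 0.43, and 15 of its 54 crosslinks fell on the first base of the exon. None of these passed the test. Without the Iqcf3 and Ggnbp2 exons, a choice made after seeing the data, the log2 density of non-canonical exons over their neighbours was -1.65 ± 0.09.

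Nasp encodes a histone chaperone whose testis isoform includes a long internal exon, and the annotated cassette version of 228 nt lies in it. This version held 36, 31 and 59 crosslinks against 40, 45 and 83 in 190 nt of neighbours, a log2 fold of -0.66 ± 0.31 (adjusted p = 0.279, edgeR), so it was strongly crosslinked and not denser than its neighbours. The rule takes only exons under 400 nt, so the rest of the long exon was not counted here. An 81 nt cassette exon of Nasp had 9, 6 and 20, with a log2 fold of -0.95 ± 0.38 (adjusted p = 0.182, edgeR). Of the other genes with splicing changes named by the study, Phf7 had cassette exons with up to 20 crosslinks and Cep126 a 198 nt exon with 6, 3 and 5 beside 4, 3 and 6, none of which passed. The study named exon 9 of Phf7. The 117 nt cassette exon that is exon 9 of its transcript held only 1, 0 and 2 crosslinks against 5, 0 and 13. Its log2 fold was -1.52 ± 0.90 (SE, adjusted p = 0.440, edgeR). The 87 nt exon of Slc4a1ap had 0, 1 and 0, and cassette exons of Rpgr, Map7d2, Rad18 and Tra2a had at most 6 crosslinks each, so no difference was detectable there at this depth. These exons met the cassette rule and were not always the exons the study named. The study's Tra2a exon is a non-coding poison exon, which the rule leaves out. Its Cep126 exon is placed in intron 5, while the exon here was exon 9 of its transcript. No Rpgr exon here carried the number the study gives.

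Groups of genes were described by 5 lists of symbols. Cassette exons of meiosis and germ cell genes, 179 in 55 genes, had a pooled log2 density over neighbours of 0.32, 0.17 and 0.16. The median log2 fold of the 43 tested among them was of the other sign, at -0.36, or -0.17 with the 3 exons at 0 set to 3 crosslinks over the libraries. Those of RNA binding and splicing genes, 324 in 82 genes, had -0.07, -0.21 and -0.11, and those of cilium, flagellum and centrosome genes, 290 in 73 genes, had -0.23, -0.29 and -0.04. Chromatin genes, with 332 exons in 85 genes, had -0.42, -0.41 and -0.22, and cytoskeleton and scaffold genes, with 499 exons in 88 genes, had -0.42, -0.76 and -0.23. The value over all cassette exons was -0.07 ± 0.05.

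Few members of these lists were called by edgeR, and those called are named here after their values were seen where no rule named them. Over all tested exons 1.44% were above and 1.30% below, and over cassette exons 1.88% and 3.56%. Of 69 exons tested in RNA binding and splicing genes, 2 were above, in Srpk1 and the SR protein gene Srsf5, and 3 were below, in Srpk1, Srsf5 and the RNA-binding protein gene Fxr1. Of 70 tested in cilium, flagellum and centrosome genes, 0 were above and 2 below, in Rpgrip1 and the centrosomal gene Cep83. At an unadjusted p under 0.05 this list had 3 above and 7 below, and DESeq2 called 0 and 1. Meiosis and germ cell genes had 1 above and 1 below of 43 tested, both in Spata6, with 2 above and 5 below at an unadjusted p under 0.05. Chromatin genes had 0 above and 3 below of 27, in Smarca2 (2 exons) and Baz1a, with 0 above and 5 below at an unadjusted p under 0.05 and none by DESeq2. Cytoskeleton and scaffold genes had 1 above and 2 below of 36, in Map4 (both directions) and Epb41l2. In the cytoskeleton list 115 of the 499 exons were non-canonical, against 3810 of 34223 in all. The most crosslinked tested exon of the cilium list was a 204 nt exon of Rpgrip1 with 16, 9 and 38 against 50, 26 and 85 in 552 nt, a log2 fold of 0.03 ± 0.35 (adjusted p = 0.981, edgeR). It lies in the same gene as the exon without crosslinks above.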

How the data were processed

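The authors had processed each iCLIP library with the iMAPS pipeline. The submitters' processing notes name Trim Galore 0.6.7, Bowtie 1.3.1, STAR 2.7.9a and UMI-tools 1.1.2 and the mm39 build. The deposited values were counts of unique cDNAs per crosslinked nucleotide and strand, not normalised, with replicates kept apart. All positions fitted GRCm39.

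Crosslinks were counted by strand in exons of GENCODE M39. Overlapping versions of an exon were merged and the longest kept. Neighbours were the coding bases of the exons before and after it in the canonical transcript, or otherwise in the longest coding transcript containing it, with at least 50 nt. Exon and neighbours in 3 libraries were fitted with edgeR 4.0.16 (R 4.3.3), with library as a term and offsets for length and library total, over all exons with at least 20 crosslinks. DESeq2 1.42.0 was an alternative. SE is the log2 fold over the root of F. The fit was tested on simulated data, where it missed most changed exons. It called 34% of exons with a true log2 fold of 2 and 18% of those with -2. At true log2 folds of 1 and -1 it called 2% and 0%, and of unchanged exons 0%. An exon that did not pass may therefore still differ from its neighbours. Pooled densities have an SD over 3 libraries and no test. GAA was counted on the gene's strand.

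Members, gene lists and naming rules were chosen with earlier results of these data known. Named were the 10 exons with the highest fold among those called above with at least 20 crosslinks and 3 in each library, the 5 with the lowest among those called below with at least 3 neighbour crosslinks in each library, the 10 with the most crosslinks, 5 non-canonical exons, exons of genes the study named, and up to 3 per gene list. Sequences printed are a choice among these. Some named items are not reported here.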

Additional observations from a re-analysis of the deposited data

Results flagged for a closer look

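Crosslinks on the strand opposite to the gene were not used in any comparison. Cassette exons held 205 such antisense crosslinks in replicate 1, 537 in replicate 2 and 219 in replicate 3, each above the limit of 3 counts that a count of 0 allows. They made up 1.85%, 5.56% and 0.956% of all crosslinks in cassette exons in the same order. The share was highest in replicate 2, which also had the smallest share of crosslinks in cassette exons and the largest downstream excess of GAA. Whether these are linked was not tested.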

How the results depend on the processing

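Against 27 cassette exons above and 51 below their neighbours, exact binomial tests per library called 3 and 4, DESeq2 8 and 7, no filter on low counts 10 and 22, at least 50 crosslinks 19 and 31, positions counted once 2 and 9, and whole neighbouring exons 98 and 51. TMM factors gave 21 and 58. Leaving out each replicate gave 0 to 0 for both counts. Fewer libraries also meant fewer exons tested, 461 to 1102 in place of 1434. With neighbours that are not cassette exons, the log2 densities over neighbours were -0.02 for cassette, 0.07 for canonical and a difference between canonical and non-canonical of 1.52. With whole neighbouring exons they were 0.64 for cassette, 0.69 for canonical, -0.62 for non-canonical, 1.32 for canonical minus non-canonical and 0.17 for cassette minus other exons. Untranslated bases enter these neighbours. Without the 10 cassette exons with the most crosslinks, canonical exons were at -0.03, non-canonical at -1.58 and their difference at 1.56. That difference was 1.50 with positions counted once and 1.49 without exons overlapping another gene. Leaving out a replicate moved the canonical value between -0.01 and 0.03, on either side of 0, within its SD. GAAGAA in place of GAA raised the ratio near crosslinks from 1.12 to 1.31. Alternatives chosen after seeing the data gave -1.65 for non-canonical exons without Iqcf3 and Ggnbp2, -2.03 for those that most transcripts skip, and 1.42 for canonical minus non-canonical within genes that hold both. The GAA-rich minus GAA-poor difference (0.75 to 1.02) and the density over flanking introns (3.51 to 4.18) kept their sign and stayed within the spread between libraries. With 1 group, replicate numbers paired no groups, and exon and neighbours were compared within each library. Depth limited tests of single exons to 1434 of 34223.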
